A study of Mus musculus with 19 samples.

Results

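Fasting was compared with ad libitum feeding for genes of peroxisomal oxidation and peroxisome biogenesis in the mouse kidney. A list of 38 genes was written, of which 37 had a named probe set on the array and Pex10 had none, among 17097 genes with a named probe set. It holds 14 oxidation enzymes, 6 membrane proteins, 12 Pex genes, catalase with 2 amino acid oxidases, and 3 enzymes of ether lipid synthesis. Each gene was read at its brightest probe set among those naming that gene alone, taken over all 19 arrays.

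Whole kidney RNA came from male mice that had not undergone renal ischaemia, with 1 array per mouse. The aged mice, on average 73 weeks old with a weight of 47 g, were a cross of FVB and C57BL/6J (FVB-C57BL/6J F1 hybrids), and 5 of them had free access to food while 5 received water but no food for 3 days. The young mice were of the inbred strain C57BL/6J, aged 10 to 14 weeks and weighing 22 to 25 g, with 5 on free access to food and 4 fasted for 3 days. Age, strain and body weight therefore change together and cannot be told apart. Array medians were 3.44 to 3.49 on the log2 scale in the aged and 4.15 to 4.21 in the young mice, so levels were compared within an age and the ages were compared by their fasting effects alone. Fasting effects are free of an offset between the ages, but not of a difference in scale. All values are log2 levels on the RMA scale (a normalized array intensity), and a log2 fold change is the mean of the fasted minus the mean of the ad libitum fed mice, with its standard error (SE) from limma.

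Peroxisomes shorten very long chain and branched fatty acids that mitochondria cannot take up directly. An acyl-CoA oxidase makes the first double bond and releases hydrogen peroxide, a bifunctional enzyme adds water and oxidises the product, and a thiolase splits off acetyl-CoA, while catalase removes the peroxide. Fatty acids with a methyl group in the blocking position, such as phytanic acid, first lose 1 carbon by alpha oxidation. Pex proteins (peroxins) build the organelle: they insert its membrane proteins, import its enzymes and govern its growth and division. The proximal tubule, the nephron segment that reabsorbs most of the filtrate, is rich in peroxisomes, and several of the oxidation genes are textbook targets of the fatty acid receptor PPARα.

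The arrays held the tissue that the labels name. The log2 of the summed level of 16 proximal tubule markers lay between 15.43 and 15.56 in ad libitum fed and 15.40 and 15.49 in fasted aged mice, and between 15.38 and 15.53 and 15.36 and 15.45 in young mice. Of these markers 2 rose and 4 fell in aged, and 2 rose and 5 fell in young fasted mice, and the summed levels of fed and fasted mice overlapped at both ages. Over all genes 4.32% rose and 4.84% fell in aged, and 10.7% and 12.5% in young mice. All marker counts here are to be read beside these shares. Aged fasted mouse 33 stood apart, with a summed log2 level of 14.65 for 15 liver markers against 12.85 to 13.00 in the other aged fasted mice and 13.03 to 13.16 in the aged fed mice. Its albumin (Alb) level was 12.58. In the young mice the summed log2 level of 9 brown adipocyte markers was 10.75 to 11.26 in fed mice and 12.33, 11.54, 12.01 and 10.97 in fasted mice 339, 340, 343 and 344. In aged mice this sum was 10.36 to 11.64 when fed and 10.71 to 12.02 when fasted. Of the 9 markers 4 rose and 1 fell in young mice, and 0 rose and 1 fell in aged mice. Among those that rose, Plin5 and Cpt1b were higher in every young fasted than in every young fed mouse. Plin5 had log2 levels of 5.4 to 6.0 in young fed and 7.5 to 7.9 in young fasted mice. Cidea and Cox8b also rose, but their fed and fasted ranges overlapped. The summed log2 level of 10 macrophage markers was 9.74 to 10.12 in young fed and 9.44 to 9.57 in young fasted mice, with 1 marker that rose and 5 that fell. For 14 markers of other nephron segments it was 14.50 to 14.59 in young fed and 14.34 to 14.38 in young fasted mice, without overlap, and 6 of these markers fell and none rose. In aged mice it was 13.73 to 14.00 when fed and 13.70 to 13.87 when fasted, with 2 markers that fell. The part of these shifts in the young responses was not tested. In whole tissue, fewer cells of a type and less RNA per cell cannot be told apart.

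Promoter bases are shown for Hacl1 and Decr2, the members with the largest rise at both ages, for the paralogous thiolase genes Acaa1a and Acaa1b, which rose as well, and for Agps, which had the largest fall in aged mice. They are the 250 bases before the RefSeq start of each gene on GRCm38.p6, 5′ to 3′ on the strand of the gene. Capitals mark CCAAT boxes and GC boxes (GGGCGG), each on either strand (ATTGG and CCGCCC are the reverse complements), and the motifs share no base there.
Hacl1, chr14:31640966-31641215, minus strand: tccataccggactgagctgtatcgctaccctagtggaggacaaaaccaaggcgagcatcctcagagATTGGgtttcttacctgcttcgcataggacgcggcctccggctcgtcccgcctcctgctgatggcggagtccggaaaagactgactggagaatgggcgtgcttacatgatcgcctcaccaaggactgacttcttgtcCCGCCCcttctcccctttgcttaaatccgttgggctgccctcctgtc
Decr2, chr17:26090165-26090414, minus strand: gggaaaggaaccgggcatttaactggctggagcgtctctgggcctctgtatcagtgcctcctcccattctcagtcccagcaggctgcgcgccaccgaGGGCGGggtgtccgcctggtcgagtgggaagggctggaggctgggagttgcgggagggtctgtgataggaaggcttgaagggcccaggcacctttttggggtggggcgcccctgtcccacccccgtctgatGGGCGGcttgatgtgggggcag
Acaa1a, chr9:119341044-119341293, plus strand: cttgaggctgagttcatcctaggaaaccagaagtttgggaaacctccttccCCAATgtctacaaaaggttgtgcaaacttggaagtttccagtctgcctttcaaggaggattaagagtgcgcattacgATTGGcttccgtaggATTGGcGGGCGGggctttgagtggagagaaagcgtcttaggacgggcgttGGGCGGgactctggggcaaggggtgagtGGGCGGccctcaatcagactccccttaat
Acaa1b, chr9:119157094-119157343, minus strand: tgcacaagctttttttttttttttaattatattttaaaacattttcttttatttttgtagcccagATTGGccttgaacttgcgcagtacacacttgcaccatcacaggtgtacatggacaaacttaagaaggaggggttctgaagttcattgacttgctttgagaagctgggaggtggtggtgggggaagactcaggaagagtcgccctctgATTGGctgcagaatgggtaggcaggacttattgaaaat
Agps, chr2:75831927-75832176, plus strand: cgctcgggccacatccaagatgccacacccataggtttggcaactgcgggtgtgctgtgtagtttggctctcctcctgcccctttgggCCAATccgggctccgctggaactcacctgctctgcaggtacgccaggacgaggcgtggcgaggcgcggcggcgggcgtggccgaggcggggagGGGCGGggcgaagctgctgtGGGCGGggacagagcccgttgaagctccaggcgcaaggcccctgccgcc
The Decr2 window holds 2 GC boxes and no CCAAT box, the Acaa1b window 2 CCAAT boxes and no GC box, and the Acaa1a window 3 of each. Agps, a gene that fell, carries 1 CCAAT box and 2 GC boxes, as Hacl1, which rose most, carries 1 of each. The Acaa1a and Acaa1b windows, from paralogous genes on chromosome 9, shared 59.2% of their bases in an alignment, within the range of 54.0% to 62.4% over all 10 pairs of these windows.
RefSeq starts were given for 31 of the 38 genes, with 38 windows of 300 bases. A direct repeat with 1 spacer base (DR1), the type of sequence that PPARα binds with its partner RXR, was in none of the 38 windows on either strand and in 0.381% of all 32851 windows. A single copy of its core AGGTCA, which can lie within the repeat, was in the windows of Cat, Dao, Phyh and Scp2, and in 16.3% of all windows. In the 250 bases before the start, CCAAT was in 17 of the 38 member windows against 33.8% of all, and GGGCGG in 23 of 38 against 32.7% of all. These are matches of letters within a short window and were given no test.

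In aged kidneys 12 members rose and 5 fell on fasting, at an adjusted p of at most 0.05 over all probe sets, where 4.32% and 4.84% of all 17097 genes did. In young kidneys 16 members rose and 6 fell, against 10.7% and 12.5% of all genes. With a fold change of at least 1.5 as well, 7 rose and 3 fell in aged mice (1.39% and 1.28% of all genes) and 8 rose and 5 fell in young mice (2.95% and 3.53% of all genes). Every fasted mouse lay above every fed mouse for 12 members and below for 6 in the aged groups, where 4.66% and 5.52% of all genes did so, and for 15 and 6 members in the young groups, where 9.9% and 11.4% of all genes did so. Enzymes of beta and alpha oxidation made up 8 of the 12 members that rose in aged and 8 of the 16 in young mice. A racemase (Amacr), a reductase (Pecr), an amino acid oxidase (Dao) and 2 enzymes of ether lipid synthesis (Agps and Far1) fell at both ages, and Pex2 fell in young mice as well. The plot of levels in each mouse shows these blocks.

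**Figure D1:**
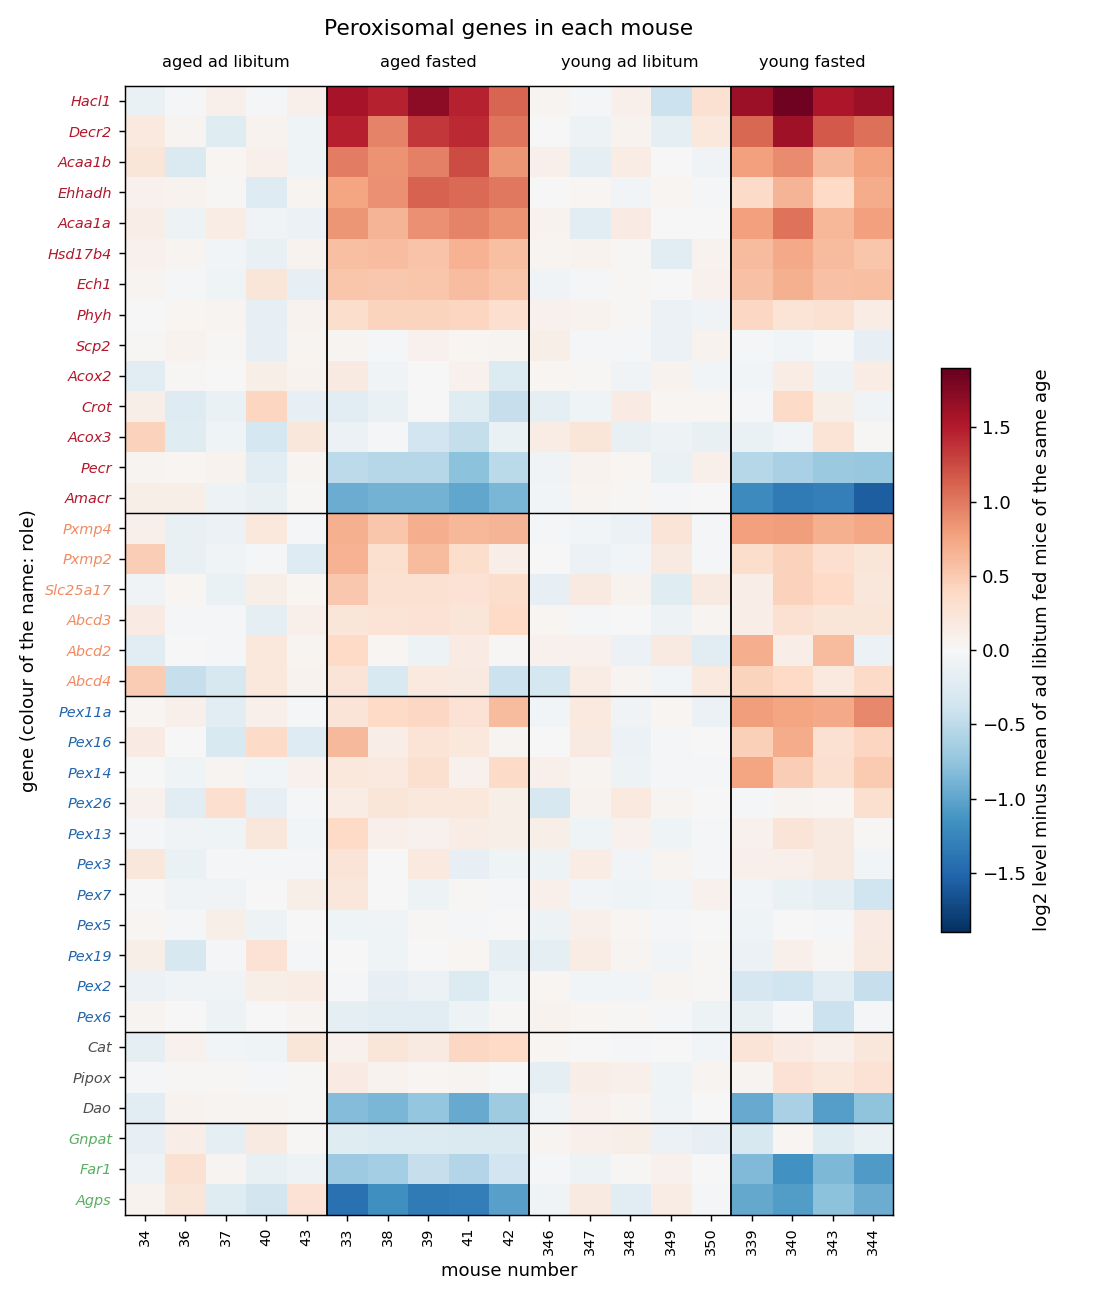
Each row is a gene, with its name coloured by role, and rows are ordered within a role by the log2 fold change in aged mice. Each column is a mouse, and the cell colour gives the log2 level minus the mean of the ad libitum fed mice of the same age. The rows from Hacl1 to Phyh are red in every fasted mouse, Pecr, Amacr, Dao, Far1 and Agps are blue in every fasted mouse, and most Pex rows are pale.

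Hacl1, the lyase that cleaves the hydroxylated intermediate of phytanic acid in alpha oxidation, had the largest log2 fold change of all members at both ages. Its log2 levels were 7.64, 7.73, 7.74, 7.86 and 7.86 in aged fed mice and 8.87, 9.23, 9.23, 9.34 and 9.46 in their fasted counterparts, in ascending order as in all such lists here. In young mice they were 8.18, 8.55, 8.64, 8.69 and 8.88 when fed and 10.13, 10.21, 10.21 and 10.44 when fasted. The groups were separated by about 1 log2 unit or more at both ages. The log2 fold change was 1.46 ± 0.10 (SE) in aged mice (limma, adjusted p = 5.31e-06) and 1.66 ± 0.12 in young mice (adjusted p = 5.67e-06), or 2.75-fold and 3.16-fold. Phyh, the hydroxylase of the preceding step, rose less, by 0.38 ± 0.07 in aged (adjusted p = 0.00418) and 0.27 ± 0.07 in young mice (adjusted p = 0.0152).

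Decr2, the peroxisomal 2,4-dienoyl-CoA reductase needed for unsaturated chains, rose by nearly the same amount at both ages. Aged fed mice had log2 levels of 6.16, 6.32, 6.46, 6.47 and 6.58, and aged fasted mice 7.34, 7.41, 7.74, 7.82 and 7.87. Young fed mice had 6.76, 6.85, 6.96, 7.02 and 7.15, and young fasted mice 7.99, 8.04, 8.12 and 8.57. No fasted mouse came near a fed mouse of its age. The log2 fold changes were 1.24 ± 0.12 (aged, adjusted p = 5.44e-05) and 1.23 ± 0.12 (young, adjusted p = 3.51e-05), and their difference, aged minus young, had a 95% interval of -0.36 to 0.37.

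The 2 bifunctional enzymes both rose. Ehhadh, the L-specific enzyme of straight-chain beta oxidation, had log2 levels of 10.47, 10.74, 10.77, 10.78 and 10.80 in aged fed and 11.46, 11.58, 11.71, 11.79 and 11.84 in aged fasted mice. The corresponding young levels were 11.53, 11.54, 11.58, 11.62 and 11.62 when fed and 11.94, 11.95, 12.23 and 12.29 when fasted. Fed and fasted mice did not overlap, although the young fed mice were tightly grouped and the young fasted mice fell into a lower and a higher pair. Ehhadh rose by 0.96 ± 0.09 in aged (adjusted p = 5.49e-05) and by 0.52 ± 0.08 in young mice (adjusted p = 0.00088).
Hsd17b4, the D-specific enzyme that also serves branched chains and bile acid precursors, had log2 levels of 9.37, 9.45, 9.56, 9.57 and 9.58 in aged fed and 10.04, 10.07, 10.08, 10.09 and 10.17 in aged fasted mice. In the young groups they were 9.91, 10.13, 10.17, 10.18 and 10.18 and 10.64, 10.72, 10.72 and 10.84. In the young fed group 1 mouse lay below the other four, and all fasted mice lay above all fed mice. The log2 fold change was 0.59 ± 0.06 in aged (adjusted p = 0.000184) and 0.62 ± 0.07 in young mice (adjusted p = 0.000142).

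Both 3-ketoacyl-CoA thiolase genes of the last step rose at both ages. For Acaa1a the log2 levels were 10.91, 10.92, 10.96, 11.15 and 11.16 in aged fed and 11.67, 11.86, 11.88, 11.89 and 11.97 in aged fasted mice. Young mice had 11.01, 11.20, 11.20, 11.28 and 11.37 when fed and 11.84, 11.99, 11.99 and 12.25 when fasted. The gap between the groups was wide at both ages, with log2 fold changes of 0.83 ± 0.08 (adjusted p = 6.31e-05) and 0.80 ± 0.09 (adjusted p = 0.000124).
Acaa1b had log2 levels of 10.95, 11.15, 11.26, 11.32 and 11.46 in aged fed and 12.07, 12.08, 12.19, 12.20 and 12.47 in aged fasted mice. In young mice they were 11.32, 11.42, 11.48, 11.58 and 11.63 and 12.10, 12.25, 12.26 and 12.39. Again no fasted mouse overlapped a fed one, and Acaa1b rose by 0.97 ± 0.10 in aged (adjusted p = 0.000137) and 0.77 ± 0.08 in young mice (adjusted p = 6.17e-05). The thiolases are near-identical paralogs, so a probe set named for one may bind the other's transcript. Acaa1a was read at a probe set whose suffix (s_at) marks probes shared by several transcripts. A further, also bright, one gave log2 fold changes of 0.94 ± 0.11 and 0.90 ± 0.08, while 2 dimmer ones gave -0.00 and 0.24 in aged and 0.21 and 0.32 in young mice, of which the 0.21 passed the test (adjusted p = 0.0241).

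Ech1, a dienoyl-CoA isomerase found in peroxisomes and mitochondria, rose at both ages, with fasted mice grouped closely. Aged fed mice had log2 levels of 11.41, 11.49, 11.53, 11.62 and 11.80, and aged fasted mice 12.08, 12.09, 12.09, 12.10 and 12.15. The young levels were 11.96, 11.99, 12.01, 12.04 and 12.11 in fed and 12.58, 12.58, 12.59 and 12.70 in fasted mice. Ech1 rose by 0.53 ± 0.08 (adjusted p = 0.00126) and 0.59 ± 0.06 (adjusted p = 3.41e-05), past 1.5-fold in the young mice alone, and the difference between the ages did not pass the test (-0.06 ± 0.09, adjusted p = 0.866).

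A pair of oxidation enzymes fell. Amacr, the racemase that converts 2-methyl-branched acyl-CoAs to the form that the oxidases accept, had log2 levels of 11.02, 11.06, 11.17, 11.26 and 11.26 in aged fed mice, against 10.16, 10.21, 10.25, 10.26 and 10.28 after fasting. The young fed mice had 11.41, 11.44, 11.47, 11.49 and 11.52 and the young fasted mice 9.90, 10.13, 10.17 and 10.26. The young fed mice lay within a narrow band far above every fasted mouse. Amacr fell, with log2 fold changes of -0.92 ± 0.07 in aged (adjusted p = 7.27e-06) and -1.35 ± 0.07 in young mice (adjusted p = 6.67e-07).
Pecr, a trans-2-enoyl-CoA reductase that saturates rather than oxidises its substrate, had log2 levels of 11.77, 12.02, 12.03, 12.03 and 12.04 in aged fed and 11.20, 11.43, 11.44, 11.47 and 11.48 in aged fasted mice. In young mice they were 11.77, 11.83, 11.94, 11.97 and 12.00 and 11.18, 11.19, 11.28 and 11.36. Within both aged groups 1 mouse was lower than the other four, and the fed and fasted groups stayed apart. The log2 fold changes were -0.57 ± 0.08 (adjusted p = 0.000983) and -0.65 ± 0.07 (adjusted p = 6.28e-05).

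Of the 14 oxidation enzymes 8 rose at both ages, where 4.32% of all genes did in aged and 10.7% in young mice. At both ages 2 fell, where 4.84% and 12.5% of all genes did. The same 4 enzymes did not pass the test at either age. These were Acox2 and Acox3, the oxidases of bile acid precursors and branched chains, Scp2, which encodes a sterol carrier and thiolase, and Crot, the octanoyltransferase that prepares shortened chains for export. Their log2 fold changes lay between -0.21 and 0.04 in aged and between -0.06 and 0.10 in young mice. The 95% interval of each lay inside a 1.5-fold change in either direction, from -0.52 to 0.18 in aged and from -0.20 to 0.31 in young mice. Scp2 had the narrowest of these intervals in aged mice, -0.10 to 0.17. Crot gave a weak signal, with log2 levels of 3.63 to 4.48 in aged and 4.21 to 4.74 in young mice, little above the array medians. Acox3 had a second, dimmer probe set that rose in young mice (0.58 ± 0.11, adjusted p = 0.00372) where its brightest did not, so its response depends on the probe set.

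**Figure D2:**
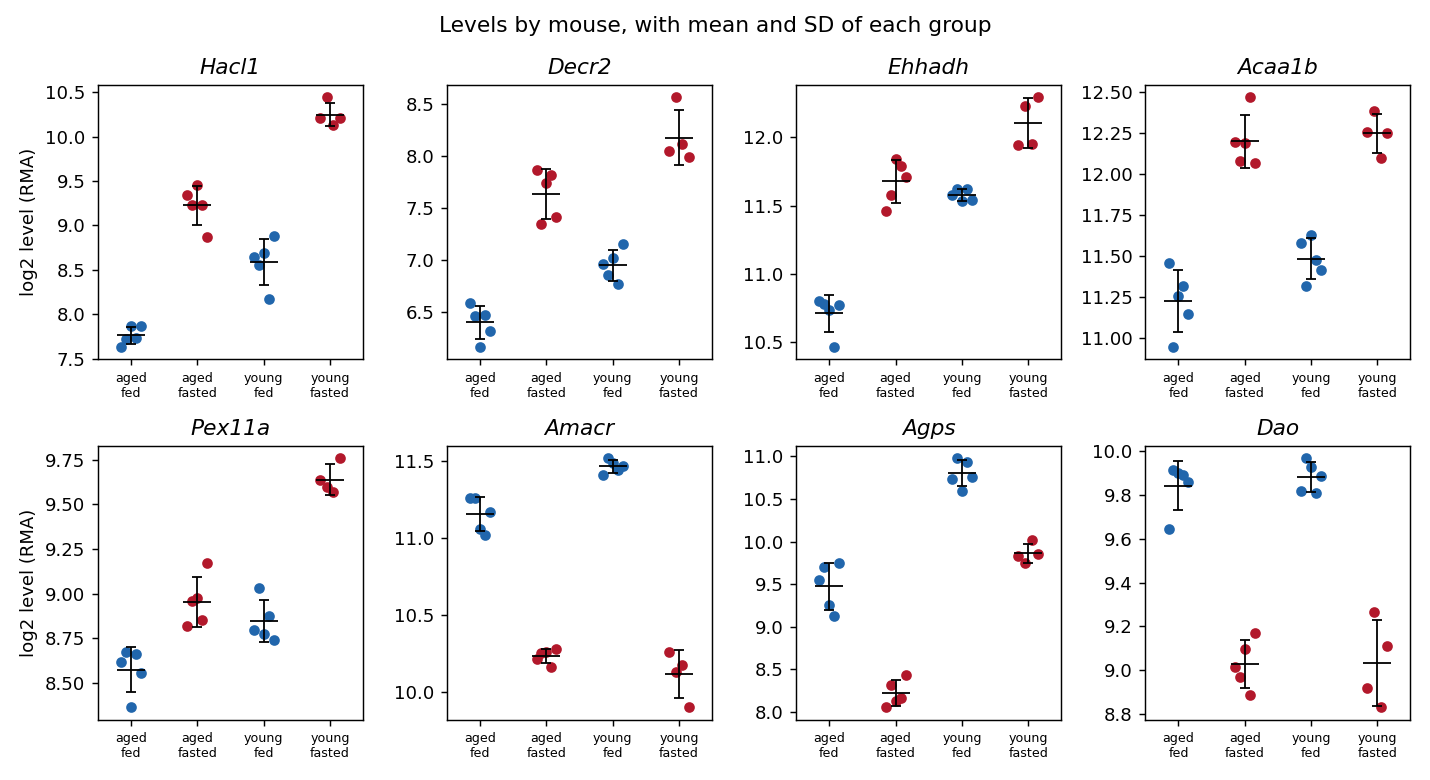
Log2 levels (RMA scale, vertical axes that do not start at 0) of 8 members in each mouse, with the mean and SD of each group; blue points are ad libitum fed and red points fasted mice (5 per group, 4 young fasted). Fasted and fed mice of an age do not overlap in any panel, and the level shifts up for Hacl1, Decr2, Ehhadh, Acaa1b and Pex11a and down for Amacr, Agps and Dao.

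Of 6 membrane proteins 3 rose in aged and 4 in young mice, where 4.32% and 10.7% of all genes rose. None fell, where 4.84% and 12.5% of all genes did. Pxmp4, an integral protein of the peroxisomal membrane, changed most. Its log2 levels were 8.38, 8.41, 8.49, 8.62 and 8.72 in aged fed and 9.05, 9.16, 9.17, 9.20 and 9.21 in aged fasted mice. Young fed mice had 8.84, 8.89, 8.90, 8.91 and 9.18 and young fasted mice 9.62, 9.68, 9.73 and 9.74. The highest fed mouse remained below the lowest fasted mouse at both ages, and Pxmp4 rose by 0.63 ± 0.08 (adjusted p = 0.000409) and 0.75 ± 0.07 (adjusted p = 4.6e-05).
Abcd3 (PMP70), the transporter that brings branched and dicarboxylic acyl-CoAs into the organelle, rose slightly, by 0.27 ± 0.07 in aged (adjusted p = 0.0478) and 0.22 ± 0.06 in young mice (adjusted p = 0.0208). The aged call was close to the threshold and was lost on leaving out any of 9 of the 10 aged mice, and the young call on leaving out fasted mouse 340 or 344. Slc25a17, the carrier for CoA and related cofactors, rose in aged mice (0.34 ± 0.07, adjusted p = 0.0143) and had 0.29 ± 0.10 in young mice (adjusted p = 0.0709). Pxmp2, a channel for small metabolites, had 0.40 ± 0.14 in aged (adjusted p = 0.111) and rose by 0.33 ± 0.07 in young mice (adjusted p = 0.00616). For neither did the difference between the ages pass the test.
Abcd4, whose product is known mainly as a lysosomal cobalamin transporter, had -0.02 ± 0.18 in aged mice (adjusted p = 0.97) and passed the test in young mice (0.34 ± 0.10, adjusted p = 0.0361), where leaving out 5 of the 9 mice in turn ended the call and 1 fed mouse reached the level of the lowest fasted mouse. Abcd2, the transporter of very long and polyunsaturated chains, gave log2 levels of 2.48 to 3.05 in aged and 2.83 to 3.73 in young mice, below the median of every array, and its values (0.10 ± 0.10 and 0.33 ± 0.15) did not pass the test.

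Most Pex genes did not pass the test. Pex11a, which promotes elongation and division of peroxisomes, rose at both ages. Its log2 levels were 8.36, 8.55, 8.62, 8.66 and 8.68 in aged fed and 8.82, 8.85, 8.96, 8.97 and 9.17 in aged fasted mice. They were 8.74, 8.77, 8.80, 8.88 and 9.03 in young fed and 9.57, 9.60, 9.63 and 9.76 in young fasted mice. The young groups stood well apart, while in aged mice the lowest fasted mice came close to the highest fed mice. The log2 fold change was 0.38 ± 0.09 in aged (adjusted p = 0.0195) and 0.79 ± 0.07 in young mice (adjusted p = 2.46e-05). A second probe set of Pex11a gave 0.28 ± 0.09 in aged mice (adjusted p = 0.0869) and 0.75 ± 0.07 in young mice (adjusted p = 3.18e-05).
In young mice Pex14, part of the docking complex for import receptors, rose by 0.50 ± 0.09 (adjusted p = 0.00163), with log2 levels of 6.81, 6.87, 6.88, 6.96 and 6.99 in fed and 7.20, 7.37, 7.41 and 7.65 in fasted mice. Pex16, which serves membrane protein insertion, rose by 0.47 ± 0.09 (adjusted p = 0.0032), and 2 further probe sets of it did not pass. Pex2, a ubiquitin ligase subunit of the receptor export machinery, fell by 0.34 ± 0.06 on the log2 scale (adjusted p = 0.00252), from 9.74, 9.74, 9.81, 9.83 and 9.85 in fed to 9.35, 9.41, 9.47 and 9.58 in fasted mice. In aged mice these 3 genes had log2 fold changes of 0.23 ± 0.07, 0.25 ± 0.14 and -0.13 ± 0.07, none past the test (adjusted p = 0.0851, 0.361 and 0.384).
The other 7 measured Pex genes passed at neither age. They are the import receptors Pex5 and Pex7, the docking protein Pex13, the membrane insertion factors Pex3 and Pex19, and Pex6 with its anchor Pex26, which pull used receptors out of the membrane. Their log2 fold changes ran from -0.13 to 0.18 in aged and from -0.18 to 0.13 in young mice. Pex5, the receptor that imports most matrix enzymes, had -0.03 ± 0.06 in aged and 0.01 ± 0.07 in young mice, with 95% intervals of -0.17 to 0.10 and -0.13 to 0.16. Pex7, which imports the thiolases, Phyh and Agps, had 0.02 ± 0.07 and -0.18 ± 0.08. A second, dim probe set of Pex13 passed in young mice (0.30 ± 0.10, adjusted p = 0.0443). Each 95% interval of a Pex gene that did not pass lay inside a 1.5-fold change, between -0.29 and 0.55 for 10 genes in aged and between -0.35 and 0.31 for 7 genes in young mice.

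The oxidation enzymes and the Pex genes were set side by side. Of 14 oxidation enzymes 10 (71.4%) passed the test at each age, where 9.16% of all genes passed in either direction in aged and 23.2% in young mice. Of 11 Pex genes 1 (9.09%) passed in aged mice, a share near that of all genes. In young mice 4 (36.4%) passed, a count too small to set apart from the share of all genes. Neither Pex count is a result about these genes. The median log2 fold change was 0.45 for oxidation enzymes and 0.04 for Pex genes in aged mice, and 0.40 and 0.08 in young mice, beside medians over all genes of -0.01 at both ages. The 6 membrane proteins had medians of 0.31 and 0.33. The median over oxidation enzymes in a single fasted mouse, relative to the fed mean of each gene, was 0.42 to 0.49 in the 5 aged and 0.33 to 0.51 in the 4 young mice. For Pex genes it was 0.01 to 0.20 in aged mice, with mouse 33 the highest, and -0.03 to 0.16 in young mice, so the ranges of the classes did not meet at either age. The difference between the class medians, 0.41 in aged and 0.32 in young mice, is a description without a test, and it was 0.36 to 0.47 and 0.30 to 0.39 when each array was left out in turn.

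**Figure D3:**
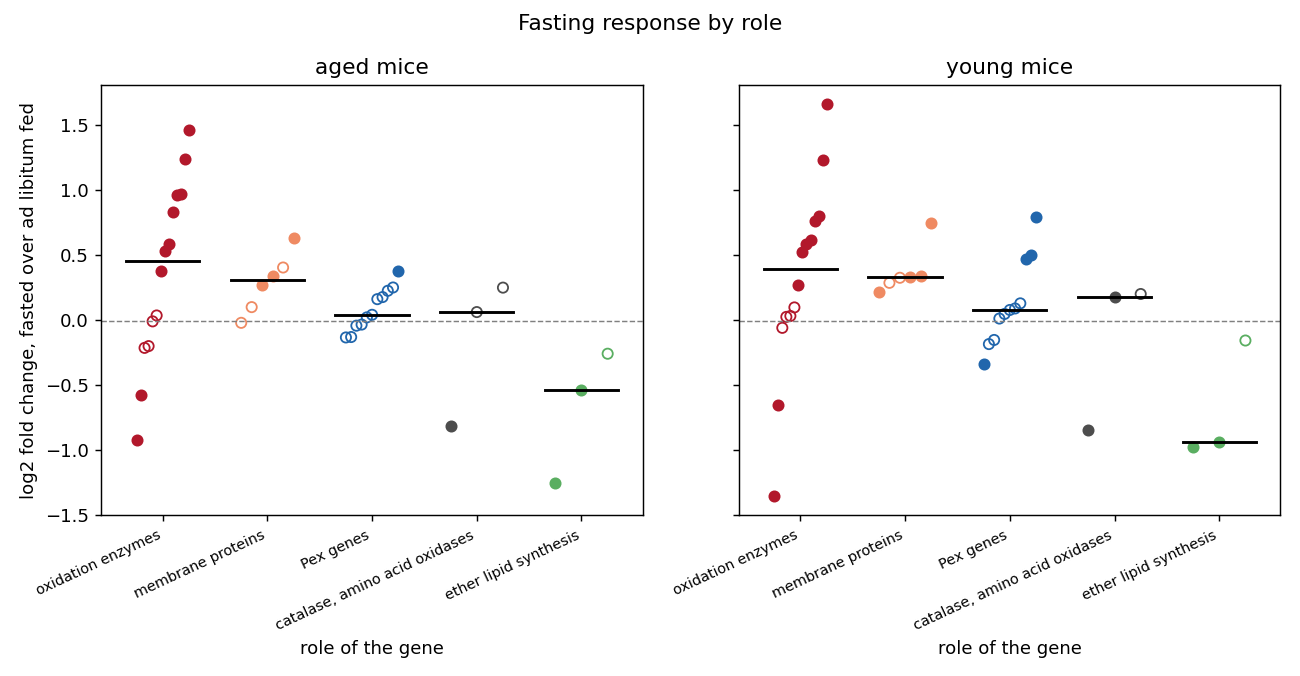
Log2 fold change (fasted over ad libitum fed) of each member by role in aged (left) and young mice (right); filled circles passed the test, open circles did not, black bars are class medians and the dashed line is the median of all genes. Oxidation enzymes spread from -0.92 to 1.46 in aged and from -1.35 to 1.66 in young mice, while Pex genes lie between -0.13 and 0.38 and between -0.34 and 0.79.

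Of catalase and the amino acid oxidases, Dao changed most. Dao, the D-amino acid oxidase of the proximal tubule, had log2 levels of 9.64, 9.86, 9.89, 9.90 and 9.91 in aged fed and 8.89, 8.97, 9.02, 9.10 and 9.17 in aged fasted mice. The young levels were 9.81, 9.82, 9.88, 9.93 and 9.97 in fed and 8.83, 8.92, 9.11 and 9.27 in fasted mice. Fed and fasted mice were far apart, and Dao fell, with log2 fold changes of -0.81 ± 0.08 (adjusted p = 5.57e-05) and -0.85 ± 0.09 (adjusted p = 5.29e-05). The only named probe set of Dao, like that of Far1, carries the s_at suffix of probes shared by several transcripts. Catalase (Cat), which breaks down hydrogen peroxide, had 0.25 ± 0.09 in aged mice (adjusted p = 0.148) and rose slightly in young mice (0.18 ± 0.05, adjusted p = 0.0414), a call lost on leaving out 8 of the 9 young mice in turn. A slightly dimmer probe set of Cat passed at both ages (0.33 ± 0.07, adjusted p = 0.0204, and 0.30 ± 0.06, adjusted p = 0.00502). Pipox, the oxidase of pipecolic acid and sarcosine, passed at neither age (0.06 ± 0.06 and 0.20 ± 0.08).

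Of 3 enzymes of ether lipid synthesis, the route to plasmalogens that begins in the peroxisome, 2 fell at each age. Over all genes 4.84% fell in aged and 12.5% in young mice. Agps, the enzyme that forms the ether bond, had log2 levels of 9.13, 9.25, 9.54, 9.70 and 9.75 in aged fed and 8.05, 8.13, 8.16, 8.31 and 8.44 in aged fasted mice. In young mice they were 10.60, 10.74, 10.76, 10.94 and 10.98 and 9.75, 9.83, 9.86 and 10.02. The fasted mice formed a separate lower group at both ages, and the log2 fold changes were -1.26 ± 0.12 (adjusted p = 7.74e-05) and -0.94 ± 0.09 (adjusted p = 2.69e-05). A second probe set of Agps gave -1.50 ± 0.13 and -0.95 ± 0.10, both past the test.
Far1, the reductase that supplies the fatty alcohol, had log2 levels of 9.12, 9.17, 9.18, 9.32 and 9.56 in aged fed and 8.58, 8.62, 8.71, 8.82 and 8.90 in aged fasted mice. Young fed mice had 10.46, 10.53, 10.56, 10.58 and 10.64 and young fasted mice 9.41, 9.48, 9.70 and 9.72. All fasted mice lay below all fed mice, and Far1 fell with log2 fold changes of -0.54 ± 0.10 (adjusted p = 0.00483) and -0.97 ± 0.08 (adjusted p = 8.73e-06). Gnpat, the acyltransferase of the first step, passed at neither age. It had -0.26 ± 0.08 in aged (adjusted p = 0.0704) and -0.16 ± 0.09 in young mice (adjusted p = 0.253). Every aged fasted mouse (7.35 to 7.39) lay below every aged fed mouse (7.45 to 7.80), as for 5.52% of all genes. The median over the 3 genes in a single fasted mouse, relative to the fed mean, was -0.69 to -0.37 in aged and -1.06 to -0.79 in young mice.

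The ages shared most calls. Of 17 members that passed in aged and 22 in young mice, 16 passed in both, 11 upward and 5 downward, and none in opposite directions. The share of all genes that passed at both ages was not counted. The paper reports that most probe sets regulated in aged mice overlapped with those of young mice, and that most shared their direction. Shared calls are therefore not shown to be particular to these members. Slc25a17 passed in aged mice alone, and Abcd4, Cat, Pex14, Pex16, Pex2 and Pxmp2 in young mice alone. A call at 1 age alone does not show a difference, which was tested directly in 1 fit of the 4 groups, where 2.44% of all genes passed. Amacr alone of the 37 measured members passed, a share near that of all genes, so this count is not a result about the members. Its fasting effect was less negative in aged mice by 0.43 ± 0.10 on the log2 scale (adjusted p = 0.0257). Without young fasted mouse 344, which had the lowest Amacr level, the difference was 0.36 (adjusted p = 0.0576). Pex11a had an aged minus young difference of -0.41 ± 0.11 (adjusted p = 0.066), Ehhadh of 0.44 ± 0.12 (adjusted p = 0.0746) and Far1 of 0.43 ± 0.13 (adjusted p = 0.084), none past the threshold at its brightest probe set. The second probe set of Pex11a gave a difference of -0.47 ± 0.12 that did pass (adjusted p = 0.0429). At an unadjusted p of at most 0.05, 6 members would have been counted (these 4, Pex2 and Pex14). The share of all genes at that level was not counted, so the 6 are no result about the members. Pex11a passed in 4 and Ehhadh in 3 of the other settings tried.

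**Figure D4:**
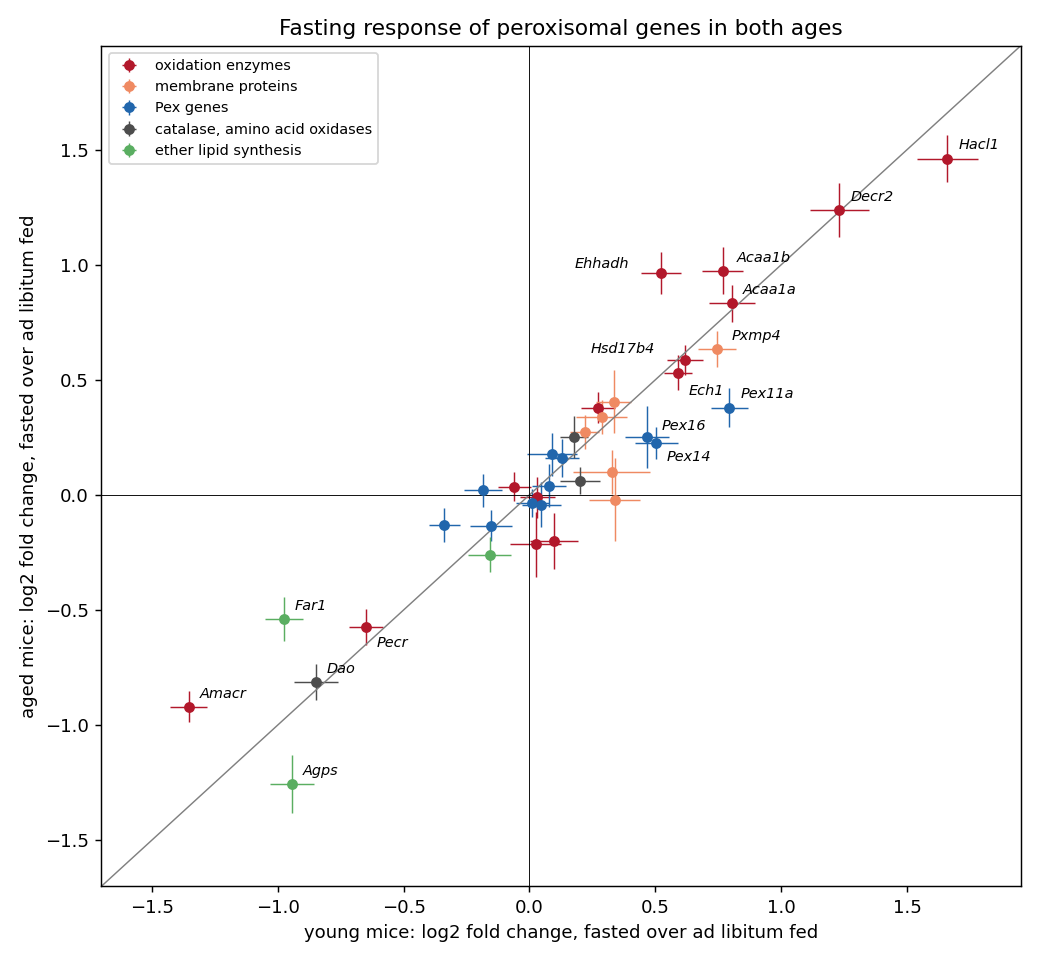
Log2 fold change (fasted over ad libitum fed) of each member in young (horizontal) and aged mice (vertical), coloured by role, with bars of 1 SE; the diagonal marks equal effects. Most members lie near the diagonal, with Hacl1 and Decr2 at the upper right, Amacr and Agps at the lower left, and Ehhadh (0.96 against 0.52) and Pex11a (0.38 against 0.79) on opposite sides.

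Among 14 members with several probe sets there were 21 further probe sets, and no pair of probe sets of 1 gene passed in opposite directions. The SD of a member within a group ranged from 0.02 to 0.37 log2 units in aged and from 0.04 to 0.38 in young mice, with group medians of 0.11 to 0.13. Leaving out aged fasted mouse 33, with its liver markers, left 11 members that rose and 5 that fell, and Abcd3 was the call lost. Brown adipocyte markers varied among mice at both ages. Without aged fasted mouse 41, which had the highest aged sum of these markers, 11 members rose and 5 fell. In young mice 15 members rose without fasted mouse 339, 13 without 340, 16 without 343 and 14 without 344, and 6 fell in each case. Leaving out 1 young fasted mouse leaves others with raised brown adipocyte sums in the group. The part of these other cell types in the responses was not tested.

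Other peroxisomal genes of a separate list were read in the same fits. Of 17 measured genes of 23 for fatty acid activation, hydrolysis and oxidation, 6 rose (35.3%) and 1 fell (5.88%) in aged mice and 7 rose (41.2%) and 2 fell (11.8%) in young mice. Over all genes 4.32% rose and 4.84% fell in aged and 10.7% and 12.5% in young mice, against which these shares and those of the next lists are to be read. Acot3, a peroxisomal acyl-CoA thioesterase, had the largest log2 fold changes (2.61 ± 0.19, adjusted p = 6.18e-06, in aged and 2.59 ± 0.15, adjusted p = 8.71e-07, in young mice), with log2 levels of 6.23 to 7.31 in fed and 9.08 to 9.48 in fasted aged mice and 6.24 to 6.93 and 8.95 to 9.46 in young mice. Probe sets of the Acot family can bind transcripts of its close relatives. The paper lists the same number for aged mice under acyl-CoA thioesterase 1 (Acot1), so this signal cannot be assigned to Acot3 alone. The fold cutoff of that list treats its numbers as natural logs, whereas the values here are log2. Acot12, an acetyl-CoA hydrolase known mainly from the cytosol, rose by 0.65 ± 0.07 and 1.00 ± 0.08, and Eci2, an enoyl-CoA isomerase, by 0.54 ± 0.09 and 0.77 ± 0.08. Hsdl2, a dehydrogenase-like protein of peroxisomes, rose by 0.61 ± 0.08 and 0.69 ± 0.09. Acot8, a thioesterase of broad specificity, rose by 0.34 ± 0.07 in aged and 0.78 ± 0.07 in young mice, and the difference passed the test (-0.44, adjusted p = 0.0276). Slc27a4, a fatty acid transport protein, fell at both ages (-0.36 ± 0.09 and -0.36 ± 0.07), and Nudt19, a CoA diphosphatase, in young mice (-0.40 ± 0.09); both were named after their values were seen.
Of 15 measured genes of 18 for import, division and quality control, 1 rose (6.67%) and 3 fell (20.0%) in aged, and 3 of 15 rose and 6 of 15 fell in young mice. Lonp2, the peroxisomal Lon protease, rose at both ages (0.32 ± 0.08 and 0.36 ± 0.07), and Vps13d, a lipid transfer protein, rose in young mice (0.49 ± 0.08). Tysnd1, the protease that processes imported enzymes, fell (-0.42 ± 0.09 and -0.43 ± 0.08), as did Trim37, a ubiquitin ligase (-0.41 ± 0.09 and -0.52 ± 0.07). Mpv17l, a membrane protein related to Pxmp2, fell more in young than in aged mice (-1.14 ± 0.11 against -0.44 ± 0.12, difference 0.71, adjusted p = 0.0366). The other gene that rose in young mice was Miga2 (0.21 ± 0.06), and the others that fell were Mff (-0.25 ± 0.07), Fis1 (-0.23 ± 0.06) and Mpv17 (-0.21 ± 0.06), all named after their values were seen. Of 11 measured genes of 15 for redox and amino acid metabolism, 1 rose (9.09%) and 1 fell (9.09%) in aged, and 2 rose (18.2%) and 2 fell (18.2%) in young mice, counts too small to set apart from the shares over all genes. Mgst1, a membrane glutathione transferase, rose by 1.79 ± 0.13 and 1.30 ± 0.08, and Hsd17b11, a lipid droplet dehydrogenase, fell (-0.35 ± 0.07 and -0.41 ± 0.09). In young mice Ddo, the D-aspartate oxidase, fell (-1.11 ± 0.10) and Gstk1, a peroxisomal glutathione transferase, rose (0.32 ± 0.08).

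Of the regulators of these genes, 11 of 13 were measured, and 2 rose (18.2%) in aged while 3 rose (27.3%) and 1 fell (9.09%) in young mice, again small counts beside the shares over all genes. Ppara, which encodes the fatty acid receptor PPARα, rose by 0.87 ± 0.09 in aged (adjusted p = 0.000152) and 1.01 ± 0.09 in young mice (adjusted p = 1.45e-05). Its log2 levels were 7.95 to 8.39 in fed and 8.93 to 9.21 in fasted aged mice, and 7.66 to 7.99 and 8.68 to 9.04 in young mice, with no overlap. Ppargc1b, a coactivator of oxidative genes, rose by 0.42 ± 0.07 (adjusted p = 0.0052) and 0.41 ± 0.06 (adjusted p = 0.00101). Lpin1, which also acts as a coactivator of PPARα, rose in young mice (0.46 ± 0.14, adjusted p = 0.0433), and Ppard, the related receptor PPARδ, fell in young mice (-0.78 ± 0.14, adjusted p = 0.00261). Rxra, the binding partner of PPARα, passed at neither age (-0.25 ± 0.07 in aged and 0.16 ± 0.07 in young mice), while the difference between the ages did (-0.41, adjusted p = 0.0422). Pparg, Rxrb, Rxrg, Ncoa1, Med1 and Hnf4a did not pass at either age. The changes of Ppara stand here beside those of the members, and no relation between them was tested.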

How the data were processed

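Kidney RNA of 19 male mice was hybridised singly to arrays of the Affymetrix HT MG-430 PM type. The authors background-corrected and normalized the arrays with RMA and deposited log2 values for 45141 probe sets, with no scanner files used here, so the number of arrays limits the precision and a relative scale hides any change of total RNA. Array medians differ between the ages, so the ages appear to have been normalized separately, and levels were not compared across them. RMA also compresses large differences, and a weak probe set has no detection call here.
Genes were named from the annotation given with the reference files, in which 28898 probe sets carry 1 symbol, 551 several and 15692 are not listed. A gene with several probe sets of its own was read at the brightest, by the mean over all arrays, and some peroxisomal genes are not reported here.
Differences were fitted with limma 3.58.1 in R 4.3.3 (lmFit and eBayes), for fasted against ad libitum fed mice within each age, and for the difference between fasting effects in 1 fit of all 4 groups. P values were adjusted by Benjamini-Hochberg over all probe sets, with calls at an adjusted p of at most 0.05. The script was tested on simulated data. Members and lists were chosen with earlier results of these data known, so no list was tested as a set. Values for each mouse are given for members past 1.5-fold and an adjusted p of 0.05 at either age, and for the 3 with the smallest adjusted p for the difference. Those of Pex14 and Pex2 in young mice were added outside this rule, after their values were seen. Of each other list, up to 4 genes per age that passed with the largest change are named, and of the regulators all. The DR1 search allowed any base at the fourth position of each core and at the spacer, on both strands. The CCAAT and GC box motifs were chosen after the responses were seen. Promoter windows came from RefSeq (GRCm38.p6), and targeting signals in the proteins were not analysed here. Alternatives changed the variance model, arrays in the fit, weights, normalization, centring, filter, probe set rule, thresholds and the arrays left out.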

Additional observations from a re-analysis of the deposited data

Results flagged for a closer look

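In 148 sets of values (37 genes in 4 groups), 13 held a highest or lowest mouse whose gap to its nearest neighbour, as a share of the range of the group, passed the 95% critical value of Dixon. At that level about 1 in 20 sets of independent normal values would be flagged, and these sets are not independent, since they share the same mice. Aged fed mouse 40 was low for Ehhadh (10.47 against 10.74 to 10.80 in the others), Scp2 (11.91 against 12.08 to 12.13) and Pecr (11.77 against 12.02 to 12.04), and high for Pex13 (8.88 against 8.59 to 8.65). Aged fasted mouse 41 was high for Ech1 (12.15 against 12.08 to 12.10) and low for Pecr (11.20 against 11.43 to 11.48). Aged fasted mouse 33, which carried liver markers, was high for Slc25a17 (9.27 against 9.03 to 9.10) and Pex13 (9.04 against 8.75 to 8.81), and aged fasted mouse 42 for Abcd3 (11.53 against 11.37 to 11.42). Aged fed mouse 34 was low for Dao (9.64 against 9.86 to 9.91). Among young mice, fed mouse 349 was low for Hsd17b4 (9.91 against 10.13 to 10.18) and high for Pxmp4 (9.18 against 8.84 to 8.91), and fasted mouse 340 was high for Ech1 (12.70 against 12.58 to 12.59). All are log2 levels. Fasted and fed mice still did not overlap for Ehhadh, Hsd17b4, Ech1, Pecr, Pxmp4 and Dao at either age.

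The fasting effect on Amacr differed between the ages by 0.43 on the log2 scale, tested in 1 fit of the 4 groups (limma, adjusted p = 0.0257), with a fall in all fasted mice of both ages. Age, strain, weight and the apparent separate normalization of the ages cannot be told apart in this difference. Amacr was the only member called, and 2.44% of all genes passed the same test.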

How the results depend on the processing

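Over 9 other settings of the fit and 19 arrays left out in turn, the 26 single-member effects followed (fasting effects past 1.5-fold and the differences of Amacr, Pex11a and Ehhadh) kept their direction, and 500 values stayed on the same side of the threshold, 7 crossed it upward and 1 downward. The one lost was the Amacr difference without young fasted mouse 344 (0.36, adjusted p = 0.0576, within a range of 0.0095 to 0.0576 over its alternatives). With a fold change of at least 1.5, 7 members rose and 3 fell in aged mice, 8 rose in young mice, and the difference between ages passed for 0, as it did at an adjusted p of at most 0.01. The number of members whose fasting effect differed was 2 with a variance trend and robust fit, 3 with array quality weights and 2 with the mean of the probe sets of each gene. With 1 array left out it was 0 to 2, with 0 without young fasted mouse 344 and 2 without young fed mouse 347, aged fed mouse 36 or 37, or aged fasted mouse 33 or 42. The shares of all genes that passed in these settings were not counted. Leaving out 1 array, 11 to 13 members rose and 5 to 6 fell in aged mice, 13 to 16 rose and 6 fell in young mice, and the difference of the class medians was 0.36 to 0.47 and 0.30 to 0.39. No scaling moved the median of all probe sets by more than 0.03. The paper describes matching its mice in pairs by weight and sex before fasting. The sample labels carry no pairing, so no paired analysis was made. Depth has no measure on arrays, and weak probe sets (Abcd2, Crot) carry little signal over the middle of the array.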
